A study of Mus musculus with 8 samples.

Results

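The 84 genes described here encode the proteins of the cytosolic ribosome and their close paralogs. They were taken by name from the 24063 gene symbols of the deposited tables: every symbol that starts with *Rpl* or *Rps* and continues with a number, with or without a closing letter and digit, together with *Rplp0*, *Rplp1*, *Rplp2* and *Rpsa*. S6 kinase genes and symbols marked as pseudogenes were left out. Of the 84 genes, 33 belong to the small (40S) subunit and 51 to the large (60S) subunit. The rule used no measured value.

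Ribosomal proteins assemble with ribosomal RNA in the nucleolus, where the subunits are made in matched amounts, and together they form the machine that translates every cytosolic mRNA. Their mRNAs are abundant and short, and most begin with a terminal oligopyrimidine (TOP) tract, a run of C and U bases that places their translation under the control of the kinase mTOR. Growing epithelia, including the developing kidney tubule, need a large supply of ribosomes, and free *Rpl5* and *Rpl11* products can bind Mdm2 when ribosome assembly fails.

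RNA was sequenced from 8 cultures of mouse tubuloids, which are epithelial structures grown between Matrigel layers from tubule fragments of postnatal kidney. The 4 GDNF cultures (numbers 6, 12, 17 and 22) received 20 ng/ml of glial-derived neurotrophic factor, the ligand that drives growth of the ureteric bud through Ret, for 24 h, and the 4 control cultures (numbers 3, 7, 14 and 21) did not. All 8 carried the genotype Pkd2fl/fl Pax8rtTA TetOCre mTmG, grew in serum with HGF, EGF and bFGF and were collected on culture day 7, which the methods place 6 days after the pulse. The labels give the kidneys as postnatal day 7 to 10, and the methods give mice of postnatal day 4 to 7. Cre in these mice depends on Pax8-driven rtTA and doxycycline, and no doxycycline step is described for these cultures. The labels do not say whether the cultures came from separate mice, and the p-values measure the spread between these cultures only.

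The tables held 72991721 to 97490625 counts per culture over all transcripts, so that counting error was small for nearly every member. The scaling factors set by the trimmed mean of M-values (TMM), which correct for composition, were 1.07 to 1.11 in the GDNF cultures, 0.963 to 0.982 in 3 controls and 0.790 in control culture 3. All 7 tubule epithelial markers and all 8 stromal markers examined reached at least 1 TPM in every culture, while *Aqp2* of the collecting duct and *Slc34a1* and *Lrp2* of the proximal tubule were at 0 in at least 1 culture. The summed level of the epithelial markers was 349 to 3148 TPM in the controls and 873 to 1252 TPM in the GDNF cultures. That of the stromal markers was 203 to 1674 and 253 to 1339 TPM, respectively, with control culture 3 lowest of all 8. The part of these markers in the values below was not tested. *Xist* RNA marked control cultures 3 and 7 and GDNF cultures 6 and 12, and Y-linked RNA marked the other 4.

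Transcripts of the 84 genes made up 4.48% ± 0.802 of all counts in the controls and 3.39% ± 0.366 after the pulse (SD, n = 4 each). The share was 5.43%, 4.79%, 4.13% and 3.58% in control cultures 3, 7, 14 and 21, and 3.85%, 3.36%, 3.40% and 2.95% in GDNF cultures 6, 12, 17 and 22. The difference between the means was -1.09 percentage points, and the groups overlapped, since control culture 21 lay below GDNF culture 6. Both subunits gave the same picture, at 2.05% and 1.55% of counts for 40S genes and 2.43% and 1.84% for 60S genes. These shares use counts summed over the transcripts of a gene, which repeat shared reads. With 1 transcript per gene, the family held 5.83% ± 1.05 of counts in the controls and 4.41% ± 0.472 after the pulse. In the authors' length-normalized abundance (TPM, with 1 transcript per gene), the family held 13.2% ± 1.52 of the total in the controls and 11.4% ± 0.767 after the pulse, and these groups overlapped too.

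**Figure D1:**
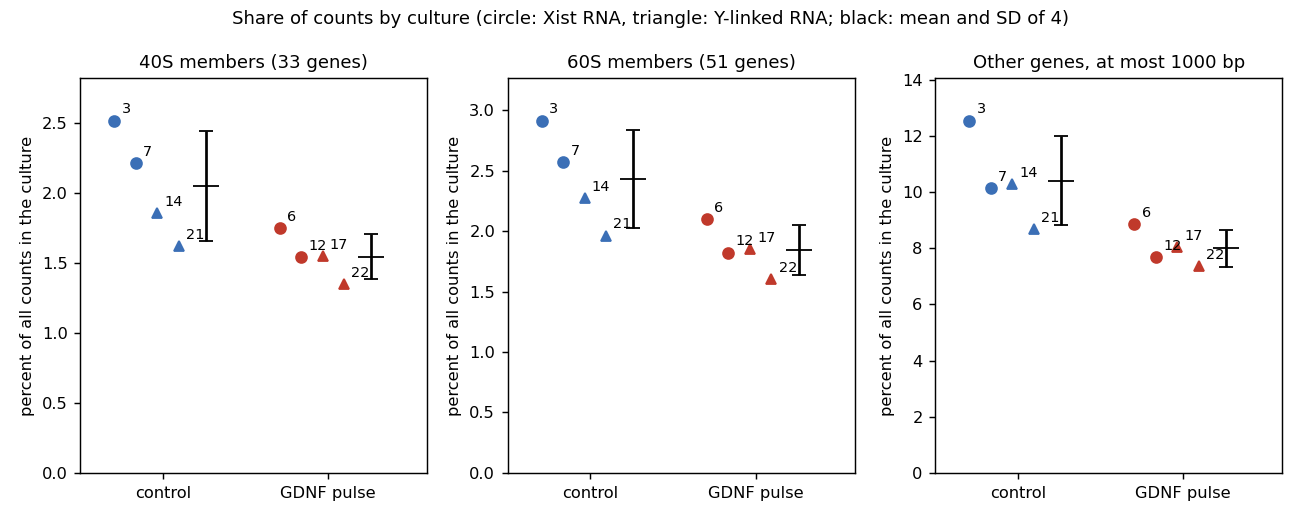
Percent of all counts in each culture (points, numbered by culture; circles, cultures with *Xist* RNA; triangles, with Y-linked RNA) in 40S genes, 60S genes and the other genes with a listed transcript of at most 1000 bp; black bars are the mean and SD of 4 cultures. Control culture 3 is highest and GDNF culture 22 lowest in each panel, and in each the lowest control lies under GDNF culture 6.

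Per transcript length, the family spanned a wide range of levels. Averaged over the 8 cultures, the 81 genes with at least 5 CPM (counts scaled to the TMM-corrected library size) lay between 61.5 and 3812 TPM, with a median of 899 TPM. The 5 highest were *Rpl32*, *Rps27l*, *Rpl41*, *Rps14* and *Rps19*. *Rpl32* stood at 4192 ± 801 TPM without and 3431 ± 266 TPM with the pulse (SD, n = 4 each). *Rps27l*, a paralog of *Rps27*, stood at 3933 ± 725 TPM without and 3459 ± 37.0 TPM with the pulse (SD, n = 4 each), a difference smaller than the spread between the controls. The means of *Rpl32*, *Rps27l* and *Rpl41* differed by less than their SD in the controls, so their order is not resolved. At the other end, *Rps4l*, an autosomal relative of *Rps4x*, stood at 69.0 ± 26.9 TPM without and 54.0 ± 11.1 TPM with the pulse (SD, n = 4 each) and *Rpl7l1* at 78.7 ± 9.82 TPM without and 67.5 ± 9.10 TPM with the pulse (SD, n = 4 each).

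Of the paralogs with restricted expression, 3 were at or near the limit of detection. *Rpl3l*, the striated-muscle counterpart of *Rpl3*, had 24, 2, 7 and 20 counts in control cultures 3, 7, 14 and 21 and 16, 28, 26 and 4 in GDNF cultures 6, 12, 17 and 22. *Rpl10l*, a testis-expressed retrogene of *Rpl10*, had 1 count in GDNF culture 6 and none elsewhere. *Rpl39l*, another gene known from testis, had 18 counts in control culture 14, 7 in GDNF culture 17 and none elsewhere. *Rpl10l* and *Rpl39l* did not pass the filter on low counts, which left 82 of the 84 genes for testing among 16557 genes in all.

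Across the family, levels after the GDNF pulse were lower than in the controls. Of the 82 genes tested, 81 had a lower fitted mean, against 47.5% of all genes tested, and the exception was *Rpl3l* with its few counts. The median log2 fold change was -0.63 (a difference of -35.6%), beside 0.03 over all 16557 genes. No member passed an adjusted p of 0.05 in the quasi-likelihood test of edgeR, with p-values adjusted by Benjamini-Hochberg over all genes, and neither did any other gene (0 of 16557, with a lowest adjusted p of 0.167). With the unadjusted p held at 0.05, 79 of the 82 members were lower and none was higher, while 12.9% of all genes tested were lower and 9.25% higher. DESeq2 at its defaults, on the same counts, called 54 members lower and none higher at an adjusted p of 0.05 (of all 20312 genes with a count, 4.46% were called lower and 0.788% higher), with the smallest adjusted p among the members at 0.0292. The number of calls depended on the tool, and the fitted direction did not. Because these are bulk libraries, fewer cells of a type and less RNA per cell cannot be told apart.

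The differences were alike in size across the family. The 81 genes with at least 5 CPM lay between log2 fold changes of -0.79 (*Rps4l*) and -0.45 (*Rpl22l1*), or -42.0% and -26.9%, with an SD across genes of 0.0739. Their standard errors were 0.163 to 0.328. These reflect the spread between cultures, which the members largely share, so they do not measure differences between genes. The median was -0.64 for the 33 genes of the 40S subunit, of which all 33 had an unadjusted p under 0.05. It was -0.63 for the 49 tested genes of the 60S subunit, of which 46 did. The 3 members above that p were *Rpl10a*, *Rpl22l1* and *Rpl3l*.

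**Figure D2:**
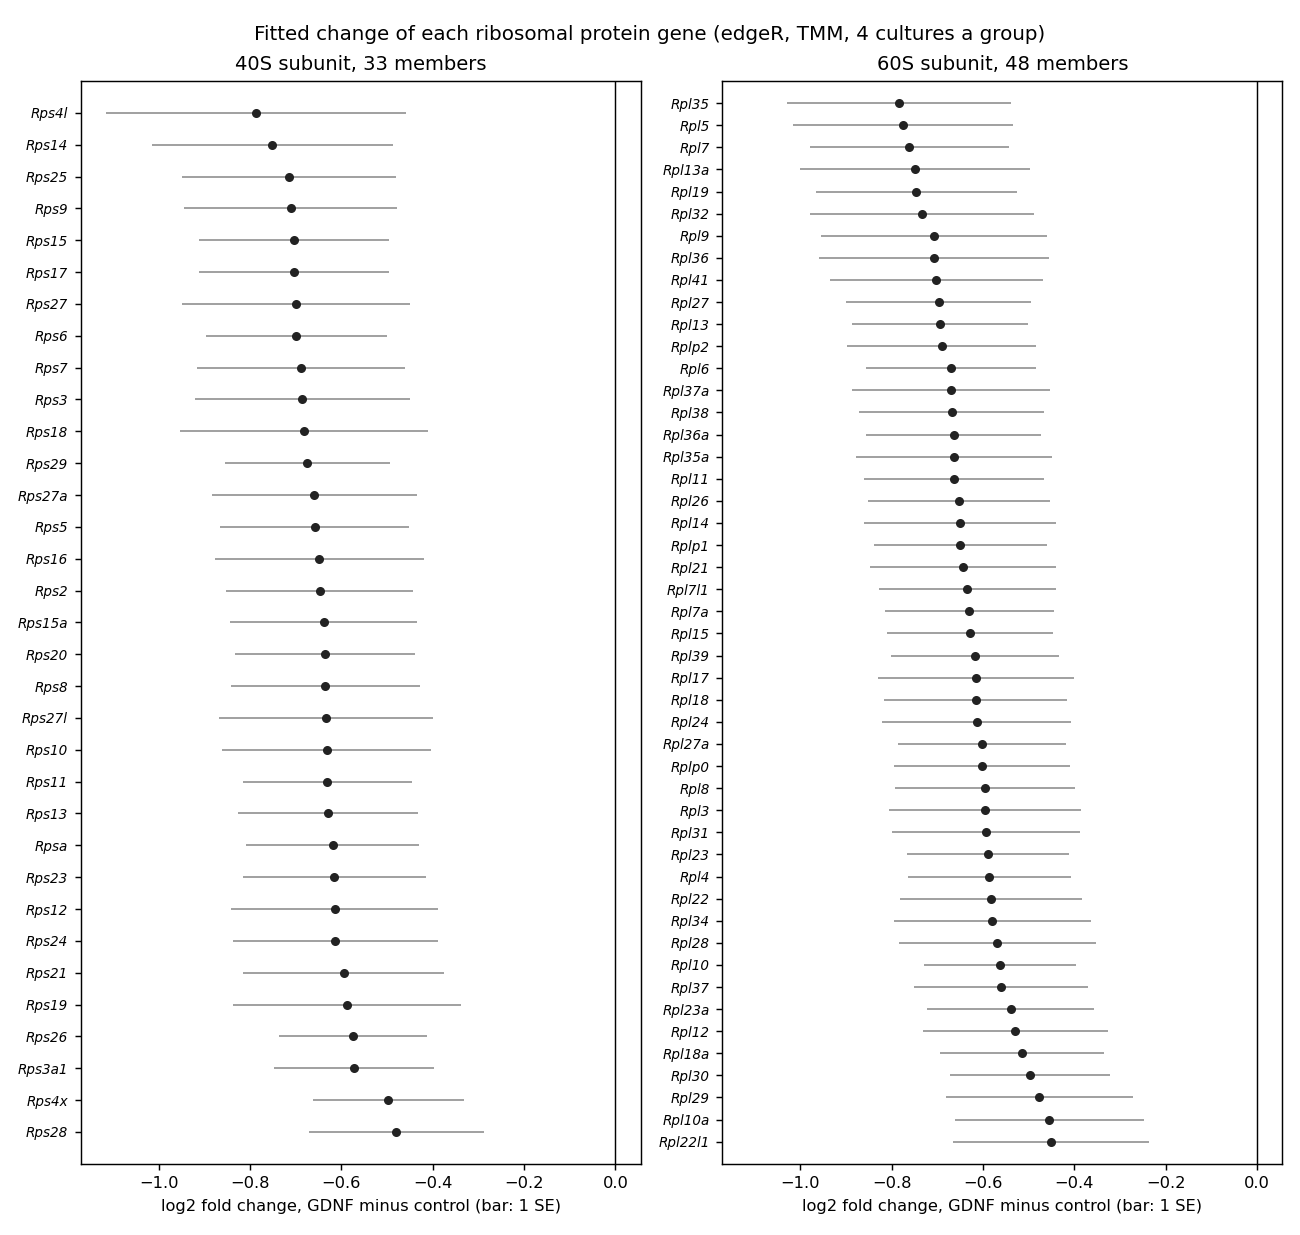
Fitted log2 fold change (GDNF minus control, edgeR with TMM) of the 81 ribosomal protein genes with at least 5 CPM, by subunit, with bars of 1 SE; the vertical line marks no difference. All points lie between -0.79 and -0.45. The bars reflect spread between cultures, which the genes largely share, and do not measure differences between genes.

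The genes with the smallest p came from both subunits. *Rps29* (mouse build GRCm38, chr12:69157722-69159186), a zinc-binding protein of the small subunit head, had 572, 355, 384 and 369 CPM in control cultures 3, 7, 14 and 21 and 278, 255, 285 and 235 CPM in GDNF cultures 6, 12, 17 and 22. The highest GDNF culture lay below the lowest control (log2 fold change -0.67 ± 0.18 (SE), adjusted p = 0.167 in edgeR and 0.0292 in DESeq2). *Rps6* (chr4:86854099-86857367), the small-subunit protein that S6 kinase phosphorylates downstream of mTOR, had 598, 370.4, 388 and 320.0 CPM in control cultures 3, 7, 14 and 21 and 259, 245, 284 and 246 CPM in GDNF cultures 6, 12, 17 and 22. Its groups did not overlap either (log2 fold change -0.70 ± 0.20 (SE), adjusted p = 0.167 in edgeR and 0.0332 in DESeq2). *Rpl6*, *Rpl13*, *Rpl15* and *Rpl27* of the large subunit and *Rps26* of the small subunit had log2 fold changes of -0.67, -0.69, -0.63, -0.70 and -0.57, respectively, each with all 4 GDNF cultures below all 4 controls. In 42 of the 82 tested members the groups did not overlap in this way, beside 6.26% of all genes tested.

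*Rpl5* and *Rpl11* form a particle with the 5S ribosomal RNA that becomes part of the large subunit. *Rpl5* (chr5:107900508-107909005) had 548, 376, 327 and 242 CPM in control cultures 3, 7, 14 and 21 and 259, 218, 220.4 and 175 CPM in GDNF cultures 6, 12, 17 and 22. Control culture 21 lay below GDNF culture 6 (log2 fold change -0.78 ± 0.24 (SE), adjusted p = 0.167 in edgeR and 0.0387 in DESeq2). *Rpl11* (chr4:136049354-136053393) had 328, 228, 217 and 178 CPM in control cultures 3, 7, 14 and 21 and 173, 146, 152 and 128 CPM in GDNF cultures 6, 12, 17 and 22, with no overlap (log2 fold change -0.66 ± 0.20 (SE), adjusted p = 0.167 in edgeR and 0.0369 in DESeq2). *Mdm2*, which their products bind, stood at 343 ± 108 CPM in the controls and 269.8 ± 13.9 CPM after the pulse (SD, n = 4), a log2 difference of -0.35 ± 0.21 (SE) with an edgeR adjusted p of 0.353.

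The genes of the lateral stalk, which recruits the elongation factors, were lower after the pulse like the rest. *Rplp0*, the base of the stalk, and *Rplp1* and *Rplp2*, its acidic arms, had log2 fold changes of -0.60, -0.65 and -0.69, all without overlap between the groups. *Rpl12*, which sits at the same base, was at -0.53 with overlapping groups. *Rplp1* (chr9:61913283-61914510) had 526, 375, 398 and 313 CPM in control cultures 3, 7, 14 and 21 and 308, 251, 258 and 211 CPM in GDNF cultures 6, 12, 17 and 22. The SD was 89.5 CPM in the controls and 39.6 CPM in the GDNF cultures, and the edgeR adjusted p was 0.167.

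Of the 5 paralogs tested, 4 had a lower fitted mean after the pulse, and so did the canonical partner of each. The fitted log2 fold changes were -0.63 for *Rps27l* and -0.70 for *Rps27*, -0.63 for *Rpl7l1* and -0.76 for *Rpl7*, and -0.45 for *Rpl22l1* and -0.58 for *Rpl22*. The differences within these 3 pairs were smaller than the SE of either gene. *Rps4l* and *Rps4x* lay further apart, at -0.79 ± 0.33 and -0.50 ± 0.16 (SE), a gap larger than the SE of *Rps4x* and smaller than that of *Rps4l*. *Rpl3l*, with its few counts, was at 0.23 ± 0.83 (SE), and its partner *Rpl3* at -0.60. These SEs include spread between cultures that both genes of a pair share, so they do not measure a gap within a pair. No difference within a pair was tested. Without control culture 3, *Rps27l*, *Rps27* and *Rpl22l1* moved to -0.34, -0.46 and -0.28, and *Rpl3l* to 0.80. *Rpl22l1* (chr3:28805508-28807424), whose protein can replace Rpl22 in the ribosome, had 434, 382, 244 and 231 CPM in control cultures 3, 7, 14 and 21 and 252, 243, 235 and 214 CPM in GDNF cultures 6, 12, 17 and 22. The GDNF cultures lay inside the control range, except GDNF culture 22, which was below it (log2 fold change -0.45 ± 0.21 (SE), adjusted p = 0.244 in edgeR and 0.154 in DESeq2). *Rps4l* had 64.8, 23.3, 58.9 and 30.1 CPM in control cultures 3, 7, 14 and 21 and 34.3, 19.2, 25.8 and 23.3 CPM in GDNF cultures 6, 12, 17 and 22, with control cultures 3 and 14 high and the others together, and the widest standard error of the 81 genes (0.33).

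Of the members, 4 lie on chromosome X: *Rpl10*, which helps to shape the peptidyl transferase centre, *Rpl36a*, *Rpl39* at the exit tunnel and *Rps4x*. Their log2 fold changes were -0.56, -0.66, -0.62 and -0.50, with a median of -0.59 beside -0.64 for the 78 others, and in each the groups did not overlap. *Rpl10* had 534, 364, 371 and 363 CPM in control cultures 3, 7, 14 and 21 and 296, 253, 296 and 259.9 CPM in GDNF cultures 6, 12, 17 and 22. Control culture 3 stood well above the other 3 controls, which lay between 363 and 371 CPM. In cultures with *Xist* RNA, mean *Rpl10* was 449 CPM in the controls and 275 CPM after the pulse, and in cultures with Y-linked RNA 367 and 278 CPM (2 cultures per group in each).

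Further ribosomal protein genes examined whose symbols fall outside the naming rule lay in or next to the same range. *Fau*, which encodes a fusion of a ubiquitin-like protein with Rps30, had a log2 fold change of -0.80. *Rpl36al* was at -0.69, *Rps27rt*, a retrotransposed copy of *Rps27*, at -0.70, and Rack1 (listed as *Gnb2l1*) at -0.60. All 4 had an unadjusted p under 0.05 and none passed an adjusted p of 0.05 in edgeR. RefSeq names 321 ribosomal protein pseudogenes in the mouse, of which 7 are listed in the deposited tables, so reads from near-identical copies may be assigned to a member, or lost, and the level of any single member is uncertain to that extent.

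The members were also read against the family rather than against all genes, a scale that centres them by construction. With each library scaled to the summed counts of the 84 genes, the 81 members with at least 5 CPM had log2 fold changes between -0.15 and 0.21, and none had an unadjusted p under 0.05 (of all genes, 0.0785% were lower and 37.0% higher at that p on this scale). That none passed does not show that the members differed equally between the groups. *Rps4l* and *Rpl22l1* were again at the low and high ends of the range. *Rpl3l*, with its few counts, lay outside it at 0.84.

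Control culture 3 and GDNF culture 22 held the extreme values. In TMM-scaled CPM, control culture 3 was the highest of the 8 cultures in 81 of 81 members, and GDNF culture 22 was the lowest in 76. GDNF cultures 12, 17 and 22 lay below all 4 controls in 75, 78 and 80 members, respectively, and GDNF culture 6 in 42. Such ranks were not counted over all genes, so these counts do not set the members apart from other genes. Among the other genes of at most 1000 bp, control culture 3 also held the largest share of counts (12.5%) and GDNF culture 22 the smallest (7.37%). Without control culture 3, the family median was -0.45, with 69 members lower at an unadjusted p of 0.05 (8.18% of all genes). The 81 members with at least 5 CPM then lay between -0.61 and -0.28, and 20 of them moved towards 0 by more than 1.5 times, among them *Rpl32* to -0.47, *Rps14* to -0.50, *Rps19* to -0.35 and *Rpl35* to -0.49. Without GDNF culture 22, the family median was -0.56, with 55 members lower at that p (7.88% of all genes), and without control culture 21 it was -0.78, with 81 members lower (15.3% of all genes). The direction of the family median was kept without any of these. Within the cultures that held *Xist* RNA, the summed TMM-scaled level of the family after the pulse was 0.572 times that of the controls, and within those with Y-linked RNA 0.738 times (2 cultures per group in each). The difference between these ratios was not tested. How the samples were spread over the 2 sequencing lanes is not given in the sources used here.

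**Figure D3:**
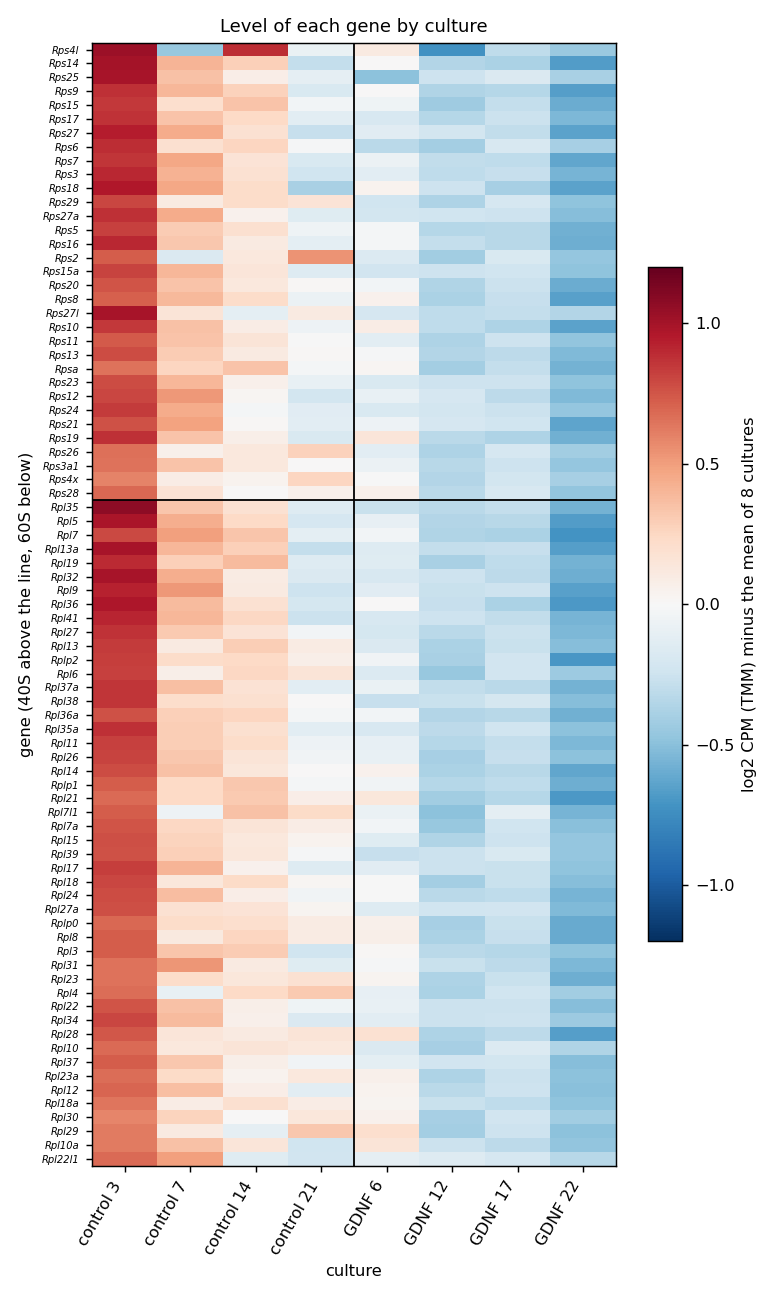
Log2 CPM of 81 ribosomal protein genes (rows, 40S above the line and 60S below, sorted by fitted change) in each of the 8 cultures (columns), as the difference from the gene's mean over the 8; red is higher and blue lower. The column of control culture 3 is the highest in every row, and GDNF culture 22 is the lowest in 76 of 81. These ranks were not counted over all genes.

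Transcript length moved with the comparison in the other genes, but not among the members. Lengths were those implied by the deposited counts and FPKM values. Among the 16475 other genes tested, the median log2 fold change was -0.48 at 401 to 600 bp, -0.47 at 601 to 800 bp and -0.46 at 801 to 1000 bp. It was -0.32 up to 1500 bp, -0.20 up to 2000 bp and -0.05 up to 3000 bp, and above 0 for longer transcripts (0.12 up to 5000 bp and 0.34 beyond). The other genes were thus lower after the pulse where the transcript was short and higher where it was long. At 400 bp or less it was 0.37, a class in which 453 of 496 genes carry symbols of microRNAs or other small RNAs. The Spearman correlation of length with log2 fold change was 0.371 across the 16475 genes, which share libraries and are not independent.

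Member medians were -0.66, -0.63 and -0.63 in the classes from 401 to 1000 bp, which hold 27, 18 and 13 genes. They were -0.19, -0.17 and -0.17 relative to the other genes of the same class. The longer members were no closer to 0. *Rpl5* (listed at 2019 bp) was at -0.78, *Rpl22* (2357 bp) at -0.58, *Rpl7l1* (2606 bp) at -0.63 and *Rps15a* (5134 bp) at -0.64, where other genes of their length classes had medians of -0.05 and 0.34. Across 80 members, the Spearman correlation of listed length with log2 fold change was 0.10. A listed length can exceed that of the RNA present: for *Rps15a*, the shortest GENCODE M21 transcript with the longest coding sequence spans 640 bp, and coding length gave a correlation of 0.03. With a length trend per culture, fitted on the other genes and entered as an offset, the family median was -0.36 and 64 members were lower at an unadjusted p of 0.05 (12.1% of all genes). The part of transcript length in the result was not tested further.

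**Figure D4:**
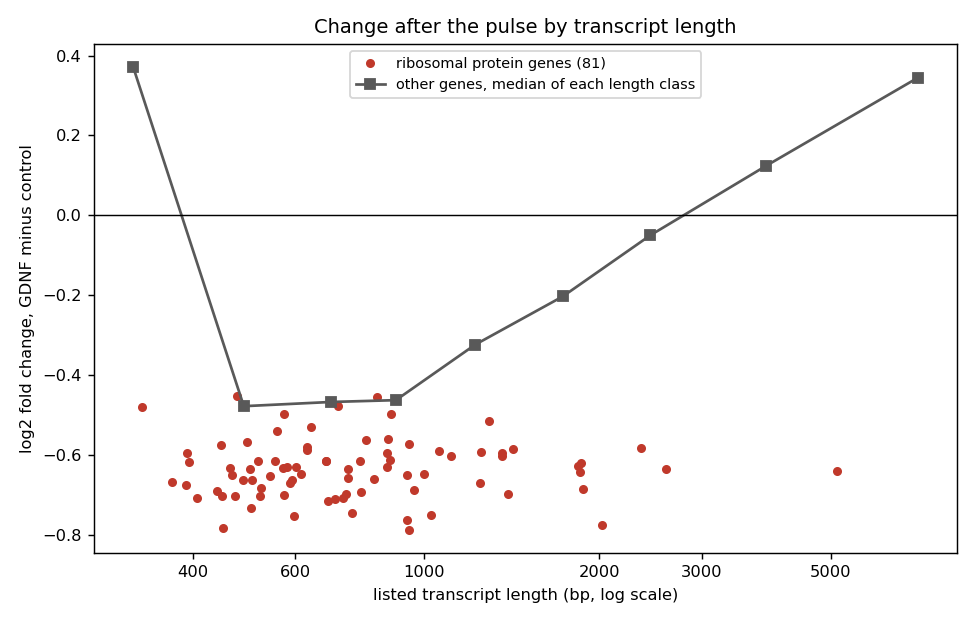
Fitted log2 fold change (GDNF minus control) of 81 ribosomal protein genes (red points) against their listed transcript length in bp on a log scale; grey squares are the medians of the other genes in 9 length classes, drawn at the middle of each class. The grey line rises from -0.48 at 401 to 600 bp to 0.34 above 5000 bp, while the red points stay between -0.79 and -0.45.

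As a share of counts, the members and other short transcripts differed between the groups by similar amounts. The 1792 other genes with a listed transcript of at most 1000 bp held 10.4% ± 1.60 of counts in the controls and 7.99% ± 0.644 after the pulse (SD, n = 4), a ratio of 0.768, beside 0.757 for the ribosomal protein genes. Other measures were less alike. As a share of TPM, the ratios were 0.908 for these other genes and 0.863 for the ribosomal protein genes. The median log2 CPM over genes differed between the groups by -0.13 and -0.61, respectively. Of the 1792 other genes, 496 had a listed transcript of at most 400 bp, and 453 of these carry symbols of small RNAs. Those 496 genes had a median fitted log2 fold change of 0.37. For the rest, the median was -0.48 above 400 and up to 600 bp, -0.47 up to 800 bp and -0.46 up to 1000 bp. Members of the same classes had medians of -0.66, -0.63 and -0.63. By library size alone, with no TMM factor, the family median was -0.40 beside 0.25 over all genes, and 56 members were lower at an unadjusted p of 0.05 (5.13% of all genes). All 81 members with at least 5 CPM kept a negative sign on that scale, from -0.53 to -0.21.

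**Figure D5:**
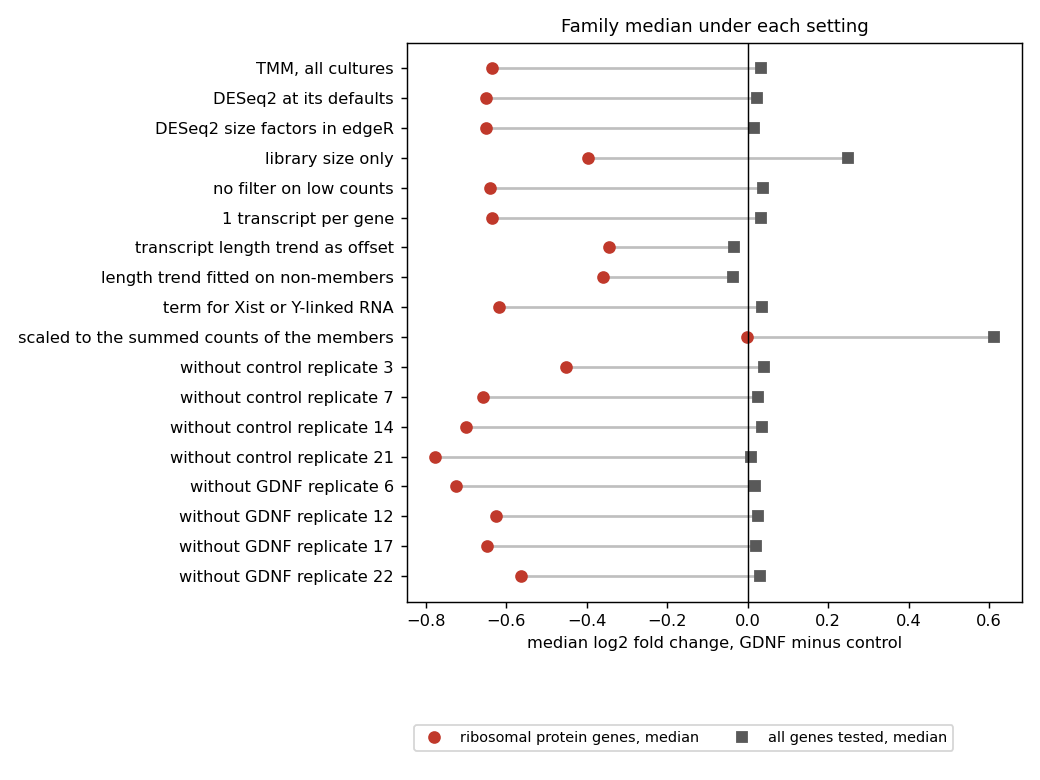
Median log2 fold change (GDNF minus control) of the ribosomal protein genes (red circles) and of all genes tested (grey squares) under each way of scaling, counting or leaving out a culture; the grey line joins both. The family median is below that of all genes in each row, from -0.78 without control culture 21 to -0.35 with the length trend, and is close to 0 by construction when libraries are scaled to the family itself.

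Other mRNAs known to carry TOP tracts, which encode translation factors and partners, were lower too. All 19 tested had a lower fitted mean, against 47.5% of all genes (median log2 fold change -0.59), and 11 were lower at an unadjusted p of 0.05, against 12.9% of all genes. With the length trend fitted on non-members, the median was -0.41 and 12 were lower at that p (2009 of all 16557 genes). None of the 19 passed an adjusted p of 0.05 in edgeR, while DESeq2 called 11 (of all genes, 4.46% lower and 0.788% higher). *Eef1a1*, which delivers aminoacyl-tRNA, was at -0.71 ± 0.19. *Eef1d*, a subunit of its exchange factor, was at -0.71 ± 0.19, *Btf3*, of the nascent chain complex, at -0.77 ± 0.21, and the initiation factor subunit *Eif3e* at -0.59 ± 0.14 (log2 fold change ± SE, each with an edgeR adjusted p of 0.167).

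Genes that build ribosomes had no common direction. Of 44 ribosome biogenesis genes, 25 had a lower and 19 a higher fitted mean (47.5% of all genes were lower), with a median of -0.16. At an unadjusted p of 0.05, 7 were lower and 7 higher (12.9% and 9.25% of all genes). The balance depended on the scaling. With the length trend fitted on the other genes, 9 were lower and 4 higher (2009 and 922 of all 16557 genes). By library size alone, 7 were lower and 9 higher (850 and 3299 of all genes). With TMM scaling, leaving out single cultures gave 7 to 12 lower, the most without control culture 7. It gave 3 to 7 higher, with 3 without control culture 3 or 14 and 4 without GDNF culture 6, 12 or 22. Over all genes, 3665 passed that p in either direction with all cultures. Leaving out single cultures gave 2192 (without GDNF culture 22) to 4104 (without control culture 7). The median of the 44 genes moved to -0.26 without control culture 7, -0.11 without control culture 3 and -0.05 without control culture 21. The smallest p values belonged to *Pno1* (-0.72), *Nop16* (-0.74), *Eif6* (-0.64), which keeps free large subunits from joining small ones, and *Polr1d* (-0.61), a subunit of RNA polymerases I and III. Of 23 genes of the mTOR and Myc pathways that control ribosome supply, 4 were lower and 7 higher at an unadjusted p of 0.05 (12.9% and 9.25% of all genes). Their median was 0.19. The number higher dropped to 3 without control culture 21 or GDNF culture 17 and to 4 without GDNF culture 22. Over all genes, 3563, 2792 and 2192 passed that p in either direction without these cultures, respectively. The median listed length of the 23 genes was 3496 bp, and other genes above 3000 and up to 5000 bp had a median of 0.12. With the length trend fitted on the other genes, 2 were lower and 2 higher (2009 and 922 of all 16557 genes), with a median of 0.09. *Eif4e*, *Rheb* and *Eif4ebp1* had log2 fold changes of -0.65, -0.53 and -0.70, and *Mlst8*, a shared subunit of both mTOR complexes, 0.40. Of 7 factors known at ribosomal protein promoters, none had an unadjusted p under 0.05, and *Gabpa* and *Sp1* were at -0.22 and 0.32. Among 7 ribosome rescue and stress genes, *Zfp598*, a sensor of collided ribosomes, was the one with a p under 0.05, at 0.58. None of these genes passed an adjusted p of 0.05 in edgeR, and DESeq2 called 7, 3, 0 and 0 in the 4 lists (of all genes, 4.46% lower and 0.788% higher).

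Low values after the pulse were not particular to the cytosolic ribosome. The 77 mitochondrial ribosomal protein genes had a median log2 fold change of -0.57, with 58 lower and none higher at an unadjusted p of 0.05 (12.9% and 9.25% of all genes). The 82 tested nuclear genes of the respiratory chain had a median of -0.65 with 71 lower, and the 43 tested proteasome genes -0.61 with 34 lower. The median listed length was 1053, 680 and 1344 bp in the 3 lists and 706.5 bp in the members. With the length trend fitted on non-members, the medians were -0.32, -0.38 and -0.39. At an unadjusted p of 0.05, 45, 55 and 29 genes were then lower (2009 of all 16557 genes). With TMM scaling and without control culture 3, the medians were -0.38, -0.41 and -0.44. Without GDNF culture 22, the respiratory chain and the proteasome had 45 and 26 genes lower at an unadjusted p of 0.05 (7.88% of all genes). Among genes with at least 5 CPM, the SD of the log2 fold change across genes was 0.0739 for the 81 members and 0.188, 0.176 and 0.167 for 77 genes of the mitochondrial ribosome, 80 of the respiratory chain and 41 of the proteasome. Over all tested genes it was 0.120 for the 82 members, *Rpl3l* included, and 0.188, 0.222 and 0.166 for the 3 lists. This difference in spread was not tested. None of these genes passed an adjusted p of 0.05 in edgeR, while DESeq2 called 26, 36 and 26 (4.46% of all genes lower and 0.788% higher).

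The promoters of the members shared sequence features that the naming rule did not use. RefSeq promoter sequences (GRCm38.p6) were matched for 63 of the 84 genes, with 75 start sites. A run of at least 8 C or T bases that begins with C on the sense strand, as TOP tracts do, lay within 40 bases before to 20 after the start in 50.7% of the 75 starts and in 19.0% of all 32851 starts. The other 37 member starts held none. The 10 windows below, written from 40 bases before the RefSeq start to 20 bases from it, are of members with a large or a small fitted difference or a small p. They include starts with and without such a run, and were chosen to show both. The longest run of at least 8 bases is in capitals, and the coordinates are *Rpl35*, chr2:39005112-39005171 (minus strand), *Rpl5*, chr5:107900488-107900547 (plus strand), *Rpl15*, chr14:18270967-18271026 (minus strand), *Rpl13*, chr8:123102310-123102369 (plus strand), *Rps6*, chr4:86857348-86857407 (minus strand), *Rpl22l1*, chr3:28805468-28805527 (plus strand), *Rpl6*, chr5:121204461-121204520 (plus strand), *Rpl36a*, chrX:134585614-134585673 (plus strand), *Rpl10a*, chr17:28328431-28328490 (plus strand), *Rpl10a*, chr17:28328525-28328584 (plus strand).
Rpl35: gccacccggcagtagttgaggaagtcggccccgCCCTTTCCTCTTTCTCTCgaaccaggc
Rpl5: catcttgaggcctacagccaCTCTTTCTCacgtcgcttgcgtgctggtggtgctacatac
Rpl15: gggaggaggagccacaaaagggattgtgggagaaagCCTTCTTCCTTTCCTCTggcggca
Rpl13: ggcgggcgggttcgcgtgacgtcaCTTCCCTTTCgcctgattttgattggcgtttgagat
Rps6: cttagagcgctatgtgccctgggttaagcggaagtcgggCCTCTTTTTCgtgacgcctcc
Rpl22l1: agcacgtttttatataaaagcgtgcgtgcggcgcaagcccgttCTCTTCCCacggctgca
Rpl6: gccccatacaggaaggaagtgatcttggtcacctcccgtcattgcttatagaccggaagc
Rpl36a: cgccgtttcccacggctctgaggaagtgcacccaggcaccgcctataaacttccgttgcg
Rpl10a (upstream start): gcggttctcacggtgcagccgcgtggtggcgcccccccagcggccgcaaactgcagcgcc
Rpl10a (downstream start): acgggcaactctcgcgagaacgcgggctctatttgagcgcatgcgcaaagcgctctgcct

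*Rpl35*, *Rpl5*, *Rpl15*, *Rpl13* and *Rps6*, with log2 fold changes of -0.78, -0.78, -0.63, -0.69 and -0.70, hold runs of 18, 9, 17, 10 and 10 bases. For *Rpl5*, the start used for the window lies downstream of the start of the gene coordinates given above, and its run begins at that gene start. *Rpl22l1*, at -0.45, holds a run of 8. *Rpl6* and *Rpl36a*, among the members with the smallest p, at -0.67 and -0.66, hold no run of at least 8 bases, and neither does either start of *Rpl10a*, at -0.45. *Rpl6* and *Rpl36a* lay near the family median of -0.63, so they are not examples of a large difference without the run. No relation between the run and the fitted difference was tested. The motif CTCTTTC, on either strand of the 300 bases around the start, was in 28.0% of member starts and 8.16% of all starts. It overlaps the pyrimidine run in some of them. The motif CCGGAAG, the core bound by ETS factors such as Gabpa, was in 36.0% of member starts and 8.86% of all, and in 33.8% of the 74 starts of mitochondrial ribosomal protein genes, of which 23.0% held the pyrimidine run. These are matches of letters and were not read as binding sites or as true transcription starts.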

How the data were processed

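RNA-Seq of 4 GDNF-pulsed and 4 control tubuloid cultures was analysed. The authors sequenced SMART-Seq v4 libraries (75 bp paired ends) and deposited one table per culture. The submitters' processing notes name STAR, featureCounts, DESeq2 and mm10 (GRCm38), with no versions; the rule for reads that map to several genes is not given in the sources used here. The deposited counts are whole, unnormalized read counts per RefSeq transcript. The deposited FPKM values are those counts scaled to transcript length and library total, and were used for lengths only. The deposited TPM values are the authors' length-normalized abundances, used for levels with the transcript of highest mean count per gene. Reads shared by transcripts of a gene count in each, so sums over transcripts repeat them.

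Counts were summed per symbol and filtered with the default filterByExpr, scaled by TMM and fitted by group with glmQLFit and glmQLFTest (edgeR 4.0.16, R 4.3.3; Benjamini-Hochberg over 16557 genes). A standard error is the absolute log2 fold change divided by the square root of F. CPM values are TMM-scaled. Total counts of 72991721 to 97490625 per culture leave counting error small except for genes with a few counts. Alternatives were DESeq2 1.42.0, DESeq2 size factors, library size only, no filter, 1 transcript per gene, a length trend per culture (spline with 5 degrees of freedom), a term for *Xist* or Y-linked RNA, an adjusted p of 0.1, other denominators of the share of counts, and leaving out each culture. A length trend fitted on non-members and scaling to the members' summed counts were chosen after seeing the data. On simulated data with 200 genes changed, run on 16557 genes for GDNF against control, edgeR recovered 45.5% of 2-fold and 86.5% of 4-fold changes at an adjusted p of 0.05, and DESeq2 50.0% and 89.0%, with 9.00% and 24.2% of their calls false at 2-fold.

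The members and lists were chosen with earlier results of these data known. Named members are the 5 with the highest mean TPM and the 3 lowest measured, the 10 with the smallest p, the 3 with the largest difference at each end among those with at least 5 CPM, all paralogs with their canonical partners, the stalk, the 5S particle and chromosome X; other lists give up to 4 examples by smallest p. *Rps15a* was added after its length was seen. Coordinates and promoters are RefSeq on GRCm38, and coding lengths GENCODE M21. Tables and figures used Python 3.11.15, pandas 2.3.3, NumPy 2.4.6 and matplotlib 3.10.9.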

Additional observations from a re-analysis of the deposited data

Results flagged for a closer look

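In 2 of 68 groups of 4 cultures examined, 1 culture stood far from the other 3, with a gap beyond Dixon's critical value for the group's range. Among independent groups, chance flags about 1 in 20, or 3 of 68. The groups here reuse the same 8 cultures over genes that move together, so that number cannot be used to judge the flags. Both flags were control culture 3. *Rps29* stood at 572 CPM there, against 384 CPM in the next highest control, and *Rpl10* at 534 CPM, against 371 CPM. Control culture 3 was the highest culture in 81 of the 81 members with at least 5 CPM, a rank that was not counted over all genes.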

How the results depend on the processing

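The family median stayed below 0 and below the median of all genes under every alternative run, except that scaling libraries to the members' own summed counts set it to -0.000736, with 0.61 over all genes, and left 0 members at an unadjusted p of 0.05. It was -0.35 with the length trend. DESeq2 called 54 members at an adjusted p of 0.05, where edgeR called 0 under each setting, an adjusted p of 0.1 included (1066 and 0 genes over all). The difference in the share was -1.09 percentage points in counts and -1.80 in TPM, where the family holds a larger share. Relative to the controls, the share after the pulse was 0.757 times in counts and 0.863 times in TPM. Leaving out each culture in turn gave medians of -0.78 to -0.45, 55 to 81 members at an unadjusted p of 0.05, 0 at an adjusted p of 0.05, and share differences of -1.39 to -0.775 percentage points. Over all genes, 2192 to 4104 passed that unadjusted p. No paired analysis was possible because the groups share no culture numbers. The cause of these differences was not tested. With libraries scaled to the members, 14 named members had small positive log2 fold changes (*Rps27l* 0.0355, *Rps19* 0.0618, *Rps26* 0.0349, *Rpl15* 0.00843, *Rpl22l1* 0.206, *Rpl10a* 0.174, *Rpl29* 0.116, *Rpl3* 0.0430, *Rpl10* 0.0635, *Rpl22* 0.0568, *Rpl39* 0.0261, *Rps4x* 0.106, *Rplp0* 0.00763, *Rpl12* 0.105). *Rpl3l* ranged from -0.15 to 0.80 with single cultures left out.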
